A study of Mus musculus with 20 samples.

Results

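Chromatin binding of p65, a DNA-binding NF-κB subunit encoded by Rela, was compared between knockout (KO) and wild-type (WT) macrophages after 30 min of lipopolysaccharide (LPS). The members are the p65 sites of these 2 CUT&RUN libraries, 43124 in the KO list and 36030 in the WT list. Counting sites whose peaks overlapped by at least 1 bp once, they made up 55965 sites, beside 96700 merged regions in all 12 deposited lists of the series. Of these sites, 23189 were shared, 19935 were called in KO alone and 12841 in WT alone. A gene was linked to every peak whose centre lay within 10 kb of its span.

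The cells were mouse bone-marrow-derived macrophages (BMDM), grown for 5 days in M-CSF, given 100 ng/mL LPS for 30 min and briefly fixed with formaldehyde. WT cells are written as C65BL6 in the design text, which names the KO as NOS1 (neuronal nitric oxide synthase), while the study's title is about SOCS1. The labels give neither the age or number of the animals nor how the KO allele was made. Each genotype was represented by 1 library, so variation between animals or preparations cannot be estimated and no test between genotypes was made. Exact 95% binomial intervals below cover counting error only, and reads that are PCR copies of one fragment are not independent.

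In resting macrophages p65 is held in the cytoplasm by inhibitors of the IκB family. LPS sensed by TLR4 leads the IKK kinases to mark IκB for degradation, and p65 then enters the nucleus and binds κB elements at cytokine, chemokine and feedback genes. Among its quickest targets are the genes of its own inhibitors, Nfkbia and Tnfaip3, and SOCS1 is a feedback inhibitor of JAK-STAT signalling that is also induced by LPS.

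The promoters below are shown because a p65 peak lay at or near each of them and because they differ in the comparison. They go from lower in KO, at Ifnb1, to called at the promoter in KO alone, at Rel. Each is the 150 bases upstream of the start site in RefSeq, build GRCm38.p6, on the gene's own strand, with matches to the κB consensus on either strand in capitals; overlapping matches run together.
Nfkb2 (chr19:46304587-46304736, + strand): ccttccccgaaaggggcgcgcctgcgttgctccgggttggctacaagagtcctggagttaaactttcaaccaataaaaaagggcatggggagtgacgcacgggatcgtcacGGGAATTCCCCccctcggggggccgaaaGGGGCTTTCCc
Tnip1 (chr11:54962941-54963090, - strand): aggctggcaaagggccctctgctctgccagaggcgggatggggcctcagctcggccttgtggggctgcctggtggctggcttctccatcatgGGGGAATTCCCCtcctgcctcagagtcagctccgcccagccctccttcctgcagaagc
Nfkbia (chr12:55492648-55492797, - strand): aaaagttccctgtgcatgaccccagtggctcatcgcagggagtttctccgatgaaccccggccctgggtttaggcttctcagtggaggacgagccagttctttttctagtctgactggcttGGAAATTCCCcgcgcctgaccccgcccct
Il6 (chr5:30012964-30013113, + strand): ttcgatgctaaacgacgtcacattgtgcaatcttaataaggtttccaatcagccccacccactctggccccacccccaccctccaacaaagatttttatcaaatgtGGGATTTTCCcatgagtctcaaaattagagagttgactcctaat
Ifnb1 (chr4:88522795-88522944, - strand): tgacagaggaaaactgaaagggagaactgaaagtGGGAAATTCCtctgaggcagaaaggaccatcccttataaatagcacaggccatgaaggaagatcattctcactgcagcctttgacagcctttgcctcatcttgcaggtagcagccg
Rel (chr11:23770970-23771119, - strand): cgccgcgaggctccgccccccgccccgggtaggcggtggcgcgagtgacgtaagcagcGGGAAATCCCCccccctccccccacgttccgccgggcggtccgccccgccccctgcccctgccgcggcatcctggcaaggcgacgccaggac

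Levels are the authors' Normalized Tag Count, the tags of a peak scaled to a library of 10000000 tags, and are called tags below. At Nfkb2, which encodes the p100 precursor of p52, the peak centre was at base -262 from the start in KO (373.2 tags) and at -269 in WT (296.1 tags). At Tnip1, a partner of the A20 deubiquitinase, the centres were at -192 and -180, with 532.7 tags in KO and 393 in WT. At Nfkbia, which encodes IκBα, they were at -395 and -365, with 214.6 and 193.3 tags. These peaks stood within 30 bp of each other in the 2 genotypes and were higher in KO by at most 0.44 on the log2 scale.

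The Il6 peak, at the gene of a pro-inflammatory cytokine, held 74.3 tags in KO and 46.2 in WT, and its centre lay 109 bp after the start in KO and 37 bp after it in WT. The Ifnb1 peak, at the interferon-β gene, was lower in KO, with 46.7 tags against 65.3. At Rel, which encodes c-Rel, the KO list had a peak of 145.9 tags centred at -265, and the nearest WT peak was 8096 bp from it. Its clonal fold change, the authors' measure of tags piled on identical positions, was 1.74, where peaks above 2 were removed by the caller. The part of tag pile-up in that difference was not tested.

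The highest site of both lists lay between genes, 10.9 kb upstream of the hairpin of Mir146, which encodes miR-146a, a microRNA known as an NF-κB-induced brake on TLR signalling. It held 1955.1 tags in KO and 1137.6 in WT, a KO over WT difference of 0.78 on the log2 scale (counting interval 0.69 to 0.87). Within 15 kb of Mir146b, whose product shares its seed, 4 KO sites (63.5 to 142.1 tags) were all shared with WT (60.4 to 122 tags), and WT had another of 16.9 tags. At Mir155, an LPS-induced microRNA, the KO list had a site of 81.6 tags 11.03 kb upstream of the hairpin and the WT list had none within 15 kb. The mature sequences are shown because the strongest site lies by 1 of them; capitals mark the seed, bases 2 to 8, which miR-146a and miR-146b have in common, per RefSeq (GRCm38.p6).
mmu-miR-146a-5p: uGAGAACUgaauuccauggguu
mmu-miR-146b-5p: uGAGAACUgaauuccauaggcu
mmu-miR-155-5p: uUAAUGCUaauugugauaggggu

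The second highest site was also shared by rank. It lay 62714 bp from Tnfaip3, the gene of A20, with 1372.5 tags in KO and 961.6 in WT. The other sites of highest mean level were near Mefv (the pyrin inflammasome sensor, 817.8 against 591.1), Txlnb (646.6 against 754.8), Mllt6 (781.4 against 564.1) and Dglucy (711.2 against 543.5). They also included a site in Nod2 (a sensor of bacterial peptidoglycan, 708.2 against 535.6), a site in Akap13 (430.2 against 754.4), and 2 sites beyond 10 kb of any gene, the nearest being Actbl2 and Cd69. Of these 10 sites 8 were higher in KO, by 0.29 to 0.78 on the log2 scale, and the Akap13 site was lower by the widest margin (log2 KO over WT of -0.81). Over the highest decile of shared sites by tags the median log2 was 0.18.

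The KO library was the deeper (18.4 M tags against 13.3 M), and 15.2% of its tags lay in peaks, against 13.2% in WT. Its peaks were 222 bp wide and those of WT 254 bp. The lowest score in the list, in unscaled tags, was 11 in KO and 10 in WT. Before filters, 95940 and 76373 candidate peaks had been found. The IgG filter removed 25796 of them in KO and 18388 in WT, and the local-background filter 26860 and 21844. Where 1 list is longer than the other, as here, a site missing from the shorter list is not shown to be unbound.

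Most WT sites were also KO sites. The KO list held 64.4% of the WT sites (63.9% to 64.9%), and the WT list held 53.8% of the KO sites (53.3% to 54.2%). The share depended on strength. From the lowest to the highest decile of each list by findPeaks score, the share called in the other genotype went from 13.5% to 86.9% for KO sites and from 24.3% to 92.6% for WT sites. Of the 100 highest sites by tags, 98 in KO and 96 in WT were shared. Sites called in both had a median of 30.4 tags in each genotype, sites in KO alone 14.4 and sites in WT alone 15.0. Scaled to the WT depth, 8.43% of the KO-alone sites would have held fewer unscaled tags than the lowest WT score of 10, and 52.7% fewer than 20 unscaled tags.

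**Figure D1:**
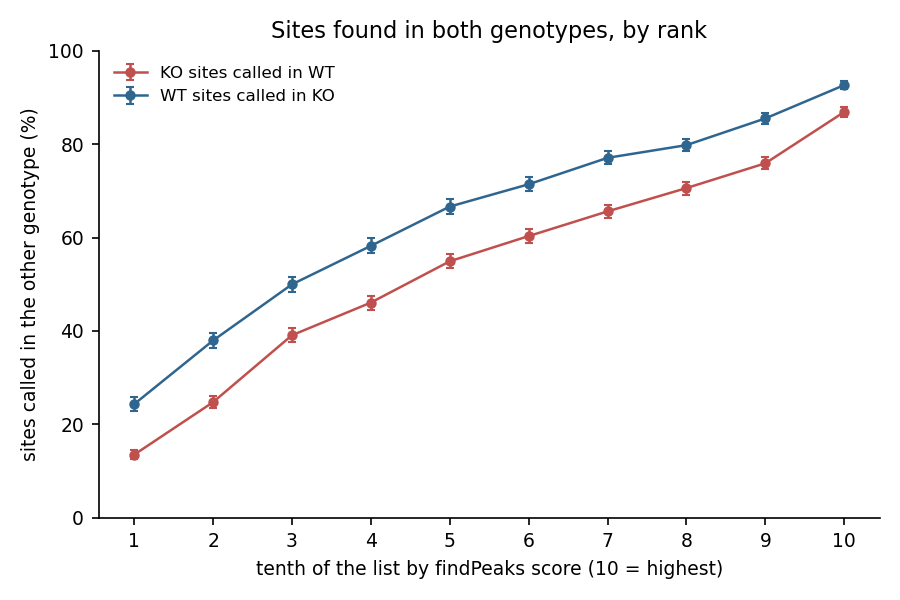
Share of p65 sites called in the other genotype (y axis, percent) by decile of findPeaks score within the list (x axis, 10 is the highest), 1 library per genotype; bars are exact 95% binomial intervals. KO sites go from 13.5% to 86.9% and WT sites from 24.3% to 92.6%.

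At the shared sites the 2 genotypes had nearly the same level. A site is shared only where both lists call it, so sites with larger differences can fall among those called in 1 genotype. The values here describe the shared sites alone. The median log2 KO over WT was 0.0028 (95% interval over sites -0.0036 to 0.011), and 97.7% of the sites lay within 2-fold. Across the 23189 sites Pearson's r of the log2 tags was 0.927 and Spearman's rho of the tags 0.918; sites of 1 pair of libraries are not replicates. KO was at least 2-fold higher at 260 sites (1.12%) and at least 2-fold lower at 279 (1.2%). Per 100 bp of peak width, where the narrower KO peaks count for more, these were 706 and 84. By findPeaks score scaled to depth, where tags on the same position are capped, they were 32 and 70. The ratio went with level. The median log2 was -0.11 in the lowest decile of the shared sites by tags and 0.18 in the highest. The SD of the log2 over sites was 0.43 in the lowest decile, against 0.50 from counting alone. In the highest decile it was 0.38 against 0.14.

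**Figure D2:**
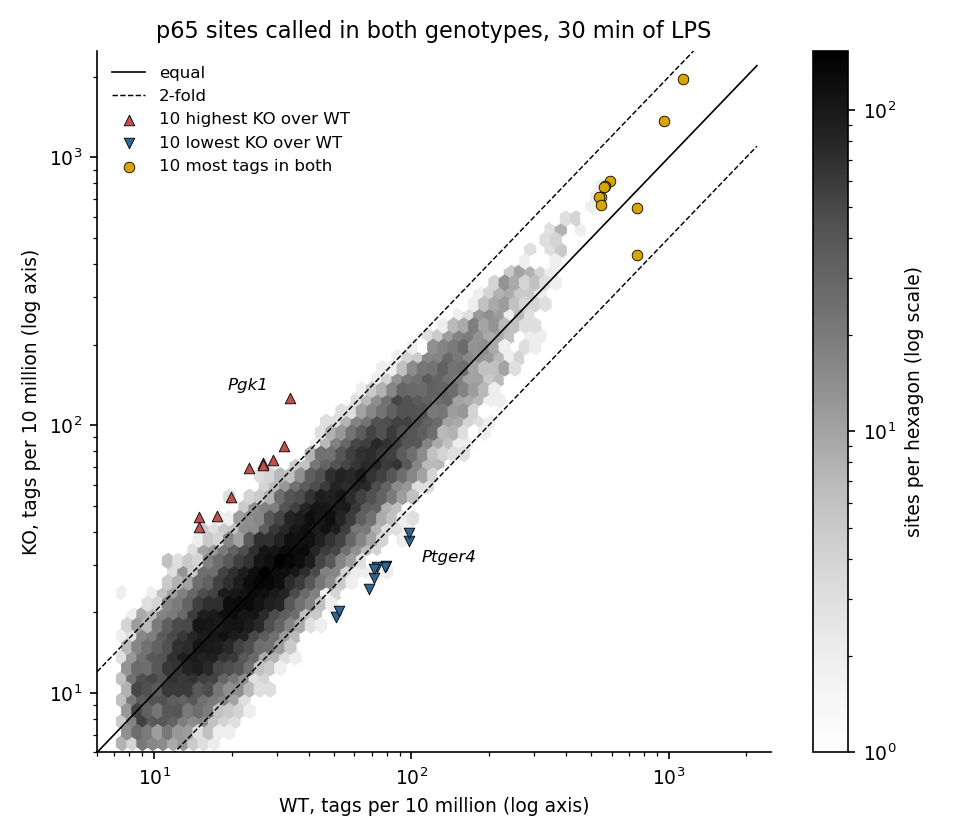
Tags per 10000000 at the 23189 sites called in both genotypes, WT on the x axis and KO on the y axis (both log axes); grey hexagons count sites, and symbols mark the sites the text names: the 10 highest and 10 lowest ratios among sites near genes in the top quartile of either list by score, and the 10 sites of highest mean level. Of all sites 97.7% lie between the dashed 2-fold lines; Pgk1 stands at 125.9 tags in KO and 33.8 in WT.

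Among strong shared sites near genes, KO stood highest over WT just outside Pgk1 on the X chromosome, which encodes the glycolytic enzyme phosphoglycerate kinase. That site held 125.9 tags in KO and 33.8 in WT (log2 1.90, counting interval 1.43 to 2.39), with clonal folds of 1.75 and 1.13. Next came sites in Inpp4a (45.3 against 15), Wnk2 (69.2 against 23.3), Ptger3 (a prostaglandin E2 receptor, 41.5 against 15) and Trim37 (54 against 19.9). The others were near Hebp1 (72.1 against 26.6), Leprotl1 and Saraf (70.8 against 26.6), in Lrrfip1 (83.8 against 31.9) and Aldh1l2 (45.8 against 17.6), and between H2-Eb1 and H2-Eb2, genes of MHC class II β chains (74.3 against 28.9). All 10 were at least 2.57-fold higher in KO, which is what put them here. Among the shared sites in the top quartile of either list by score, 1.09% were 2-fold higher in KO and 0.656% lower.

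Among the same strong shared sites near genes, the lowest ratio was at a site in Cct4, a chaperonin subunit, close to Commd1, a negative regulator of NF-κB: it held 24.4 tags in KO and 68.3 in WT (log2 -1.49, counting interval -2.03 to -0.95). A site just outside Ptger4, which encodes the EP4 prostaglandin E2 receptor, held 36.9 tags in KO and 97.6 in WT. A site in Nlk, a kinase of the MAPK-like family, held 39.6 and 97.6. The remaining sites were in Spire1 (29.8 against 79.9), Stard5 (29.6 against 78.8), Ubac2 (19.3 against 50.7), Cct2 (20.3 against 52.5), Tmem97 (29.6 against 73.6) and Ppcdc (29 against 71.3), and near Clcn3 (26.9 against 71.3). At Cct4, Spire1, Clcn3, Ptger4 and Nlk the WT clonal folds were 1.73 to 1.76 and those of KO 1.09 to 1.42. Whether tag pile-up entered these ratios was not tested.

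Of 21887 protein-coding genes, 59.3% had a site within 10 kb in both lists, 6.09% (1333 genes) in KO alone and 2.55% (559) in WT alone. With the lists cut to equal length this order turned, with 910 genes in KO alone and 954 in WT alone. For genes with a site in both, the strongest site was at least 2-fold higher in KO in 4.04% and at least 2-fold lower in 1.73%, with a median log2 of 0.053. The strongest site was the same in both genotypes for 63.3% of these genes, and for the others the values given are of different sites, as marked below. The ratio also went with level: its median was 0.00 for genes whose strongest sites averaged under 50 tags, 0.06 from 50 to 100, 0.22 from 100 to 200 and 0.26 from 200 upward. The strongest site was higher in KO in 54.4% of all genes with a site in both. This share was 68.9% from 100 to 200 tags and 75.4% from 200 upward. The medians and counts of the gene lists below, chosen with results of these data known, are given beside these medians and shares.

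**Figure D3:**
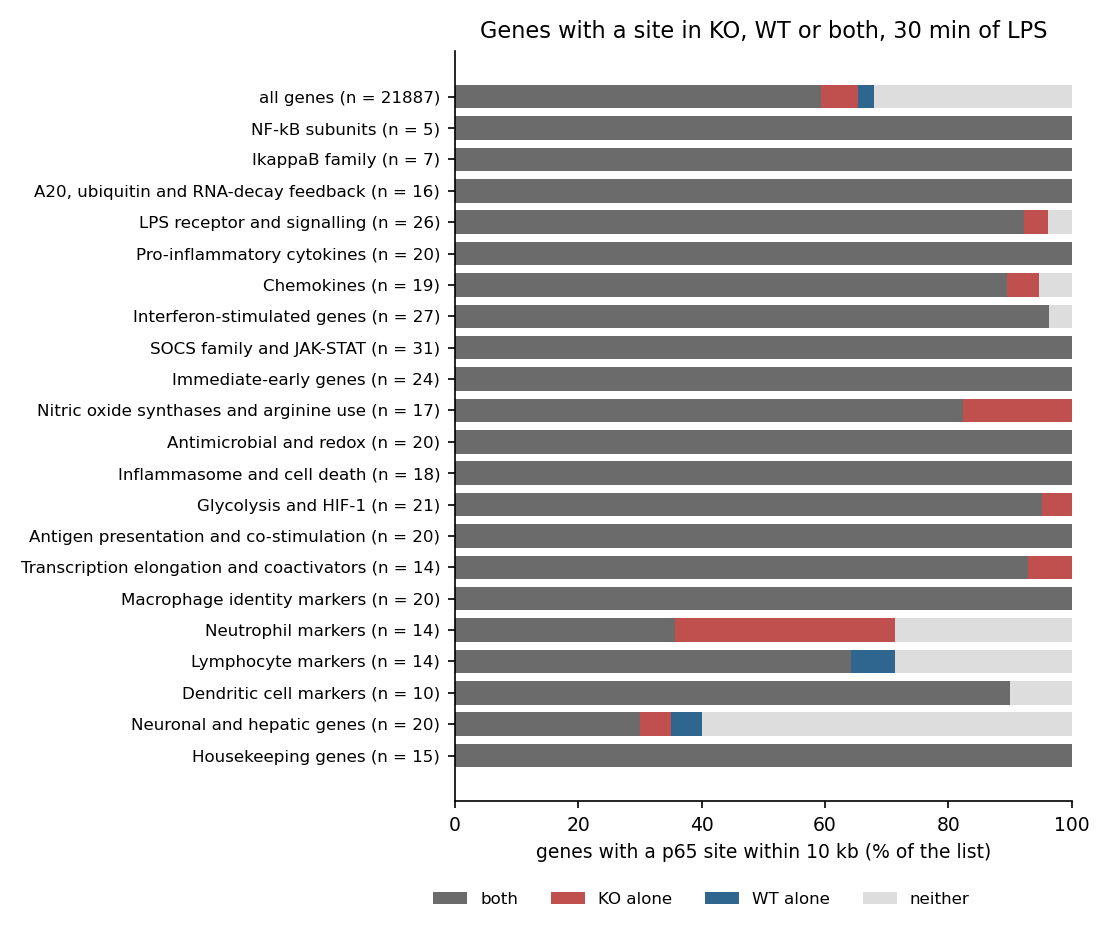
Share of each gene list (x axis, percent) with a p65 site within 10 kb in both genotypes, in KO alone, in WT alone or in neither; the number of genes stands beside each list, and the top bar is all 21887 genes (59.3% both). The NF-κB subunits, IκB family, feedback regulators and cytokines have sites in both genotypes at every gene; Nos1, Spr and Ddah1 are the KO-alone members of the nitric oxide list.

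The NF-κB system itself was covered in both genotypes, at 5 of 5 subunit genes, 7 of 7 IκB genes and 16 of 16 genes of A20, ubiquitin and RNA-decay feedback. Among the subunits the strongest site of Relb held 290.2 tags in KO and 197.4 in WT, that of Nfkb1 (p105/p50) 223.8 and 172.7, and that of Rela, which encodes p65 itself, 89.8 and 113.3. The median log2 KO over WT of the 5 genes was 0.37, and 4 were higher in KO (80%). Over all genes the share higher in KO was 68.9% from 100 to 200 tags and 75.4% from 200 upward. Rel was among the 4, from different sites (145.9 tags against 96.8, KO clonal fold 1.74). Among the inhibitors Nfkbib (IκBβ) held 339.0 against 214.3, Nfkbie (IκBε) 320.1 against 209.8, and Nfkbiz (IκBζ, a nuclear coactivator) 332.8 against 308.1. The site of Nfkbil1 (328.7 against 250.3) is also that of Tnf and Lta, its neighbours. The IκB genes had a median log2 of 0.39, and the strongest Bcl3 sites, which differed in place, held 100.6 tags in each genotype.

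Among the feedback genes Tnip1 was the highest. Zc3h12a (Regnase-1, which degrades cytokine mRNAs) held 317.1 tags in KO and 236.8 in WT. Zfp36 (tristetraprolin, which binds AU-rich elements of mRNAs) went the other way, with 270.7 against 326.5, and Traf3 held 234.9 against 201.9. Within 10 kb of Tnfaip3 itself the strongest site held 89.5 and 74.7 tags. Traf2 had the widest ratio of the list (158.7 against 81.8, log2 0.96). The median of the 16 genes was 0.24. Over all genes of 100 tags or more the medians were 0.22 to 0.26, and the part of level in these lists' medians was not tested. No member of these 3 lists was 2-fold apart.

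**Figure D4:**
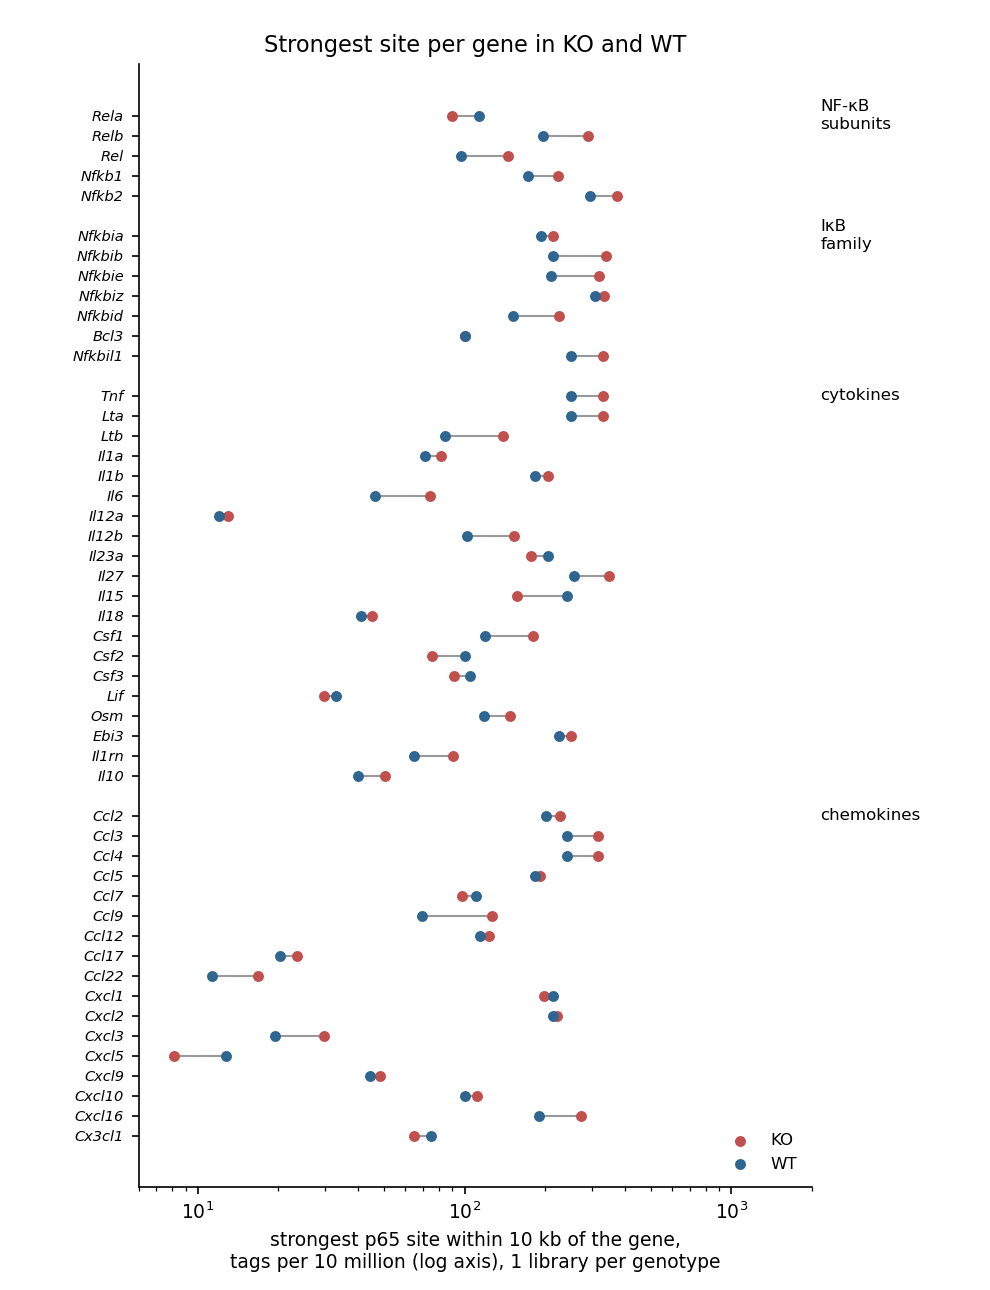
Strongest p65 site within 10 kb of each gene in KO (red) and WT (blue), in tags per 10000000 on a log axis, for genes of 4 lists with a site in both genotypes, 1 library per genotype. Tnf, Lta and Nfkbil1 share a site, as do Ccl3 and Ccl4; Bcl3 has equal values, and Il15 and Csf2 are lower in KO.

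All 20 cytokine genes had sites in both genotypes. Tnf and its neighbour Lta shared a site of 328.7 tags in KO and 250.3 in WT. The strongest sites of Il27 held 348.0 against 256.0, those of Ebi3, which encodes its partner subunit, 249.8 against 226.3 at different sites, and that of Il12b, the p40 subunit of IL-12 and IL-23, 153.5 against 101.7. Il15 was lower in KO (157.3 against 241.7), as were Csf2 (GM-CSF, 75.7 against 100.6) and, at different sites, Il23a (177.7 against 204.6). The list's median log2 was 0.26, and 15 of 20 were higher in KO (75%). Over all genes that share was 54.4%, and 68.9% from 100 to 200 tags. The list's widest ratios were -0.62 at Il15 and 0.73 at Ltb, so none was 2-fold apart.

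Of 19 chemokine genes 17 had sites in both, Ccl6 in KO alone and Cxcl14 in neither. Ccl3 and Ccl4, neighbours that attract monocytes, shared a site of 315.7 tags in KO and 242.1 in WT. Cxcl16 held 273.1 against 190.7, Ccl2 228.1 against 201.9, and Cxcl2, a neutrophil attractant, 221.1 against 214.7 at different sites. The KO-alone site of Ccl6 (126.4 tags, clonal fold 1.51) lay 8642 bp from any WT peak. The same site is the strongest KO site of Ccl9, whose strongest WT site held 69.1. The median log2 of the 17 genes was 0.15.

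For LPS sensing, 24 of 26 genes had sites in both. Cd14, the co-receptor that hands LPS to TLR4, held 435.6 tags in KO and 338.9 in WT, Tlr2 held 348.5 against 322.4, Ticam1 (TRIF) 214.6 against 212.4, and Map3k8 (TPL2) 164.6 against 187.3. Irak1, a kinase downstream of MyD88, had sites in KO alone, the higher with 14.9 tags, and Lbp had none. The median log2 was 0.06, close to that over all genes.

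Interferon-stimulated genes had sites in both genotypes at 26 of 27 members, with none at Ifi44. Irf1, an early transcription factor of the interferon response, held 250.6 tags in KO and 192.9 in WT, Stat2 160.6 against 204.6, Gbp3 164.9 against 160.3, and Ifi205 131.8 against 156.9. The median log2 was 0.02, and 13 of the 26 were higher in KO (50%, beside 54.4% over all genes). Ifih1 (MDA5, an RNA sensor) was 2-fold higher in KO (35.3 against 10.1), but these were different sites, the KO one 18439 bp from the nearest WT peak.

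All 31 genes of the SOCS family and JAK-STAT pathway had sites in both. Socs1 had a site 14 bp apart in the 2 genotypes, just outside the end of the gene that lies at the higher coordinate (59.1 tags in KO, 84.8 in WT), and one by its other end (38.8 and 46.9). Another Socs1-linked site, of 7.87 tags, was called in KO alone. Il10rb held 413.1 against 338.2, Cish (a SOCS-family inhibitor induced by STAT5) 222.1 against 290.5 at different sites 455 bp apart, Tyk2 171.2 against 166.6, and Socs7 202.6 against 143.8. Socs3, which restrains IL-6 signalling, held 162.2 against 114.1. The median log2 was 0.12 and no member was 2-fold apart.

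Among 24 immediate-early genes, all with sites in both, Dusp1 (a phosphatase that turns off MAP kinases) held 303.5 tags in KO and 272.9 in WT, and Egr2 219.4 against 239.5. Ier3 held 152.7 against 132.1 and Fosb 147.3 against 130.2, both at different sites. Jun and Egr1 were lower in KO (65.9 against 116.4, and 62.1 against 104.7), within 2-fold. Junb was 2-fold higher (110.9 against 52.5), from different sites.

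The antimicrobial and redox genes (20 of 20 in both, median log2 0.22) were led by Slc11a1 (Nramp1, a phagosomal metal transporter, 348.5 against 223.3), Cyba, a subunit of the phagocyte NADPH oxidase (217.0 against 166.3), Acod1, which makes itaconate (187.7 against 184.7), and Txnrd1 (185.8 against 173.0). The cell death and inflammasome genes (18 of 18, median 0.19) were led by Mcl1, a survival factor (374.3 against 278.9), Gadd45b (310.3 against 245.1), and a site shared by Casp1 and Casp4 (175.5 against 203.1). Pycard (ASC) was 2-fold higher in KO (log2 1.31), again from different sites. Antigen presentation genes (20 of 20, median 0.20) were led by a site shared by Tap1 and Psmb9 (273.1 against 174.2), Cd83 (210.8 against 224.8) and Tapbp (226.2 against 146.8). Cd274, which encodes PD-L1, was lower in KO (78.7 against 151.6, log2 -0.95).

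Among the 21 glycolysis and HIF-1 genes 20 had sites in both (median log2 0.17), led by Tpi1 (269.3 against 266.5), Slc2a1 (the glucose transporter GLUT1, 141.6 against 143.8), Hk1 (148.4 against 102.1) and Pkm (99.8 against 94.2). Hk3, a hexokinase of myeloid cells, had a site in KO alone (80.8 tags, 19000 bp from a WT peak). Pgk1 and Eno1 (59.7 against 8.63, different sites) were 2-fold higher in KO. Of 14 genes of transcription elongation and coactivators 13 had sites in both, among them Kdm6b, an LPS-induced H3K27 demethylase (451.9 against 353.9), Brd3 (193.1 against 149.0, different sites), Polr2a (150.3 against 179.4) and Larp7 (147.8 against 132.1). The median log2 was -0.17, with Ep300 2-fold higher and Crebbp 2-fold lower in KO (log2 1.14 and -1.23), both acetyltransferase coactivators and both compared at different sites. Cdk9, the kinase that releases paused RNA polymerase II, had sites in KO alone, the stronger of 244.4 tags and rank 293 of its list. That stronger site was also called in the WT p65 list at 8 h.

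Of the genes of nitric oxide synthesis and arginine use, 14 of 17 had sites in both and 3 in KO alone (17.6%, beside 6.09% over all genes). Those 3 were Nos1, Spr (sepiapterin reductase, which makes the synthases' cofactor, 52.6 tags) and Ddah1 (which breaks down an endogenous inhibitor of the synthases, 15.7 tags). Nos2, the inducible synthase of macrophages, had 22.8 tags in KO and 25.1 in WT, at different sites. Nosip held 151.9 against 34.2, from different sites, Ddah2 75.1 against 89.0, Gch1 64.0 against 73.9 (different sites), and Arg2 62.4 against 69.4. The list's median log2 was -0.19, against 0.053 over all genes.

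Nos1, the gene that the design text names as knocked out, had 6 sites in the KO list and none in the WT list. The strongest, at chr5:117872377-117872599 inside the gene, held 137.8 tags and had a clonal fold of 1.46. Its IgG count was 0.5, the floor value that 37.2% of the peaks in the KO list had. The others held 11.9 to 38.5 tags, and 2 of the 6 lay outside the gene, at -0.663 and -5.131 kb from its lower-coordinate end. WT had no peak over 612 kb around the gene, and the KO list had 7 there. Of the 36010 stretches between neighbouring WT peaks, 30 held at least 7 KO peaks. Among 1 Mb bins of at least 20 sites, the one that holds Nos1 had the highest share of KO-alone sites (61.8% of 34, median bin 35.1%). That bin also holds Taok3, Ksr2, Fbxo21 and other genes, and of its 21 KO-alone sites 6 were those of Nos1. In the other lists, which were not used to call these sites, Nos1 had peaks in 4 of the 5 other KO lists (37.9 to 147.3 tags at the highest peak) and in none of the 5 other WT lists. Across all 12 lists 13 of 21887 genes had a peak in at least 5 of the 6 KO lists and in no WT list. Nos1 was among them, and no gene had the reverse. The KO list was the longer of each pair except p65 at 8 h, most so for SOCS1 in untreated cells (24270 sites against 9438). The part of list length and peak width in these counts was not tested. The labels do not say which stretch of the gene was removed, so these peaks do not check the KO label.

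**Figure D5:**
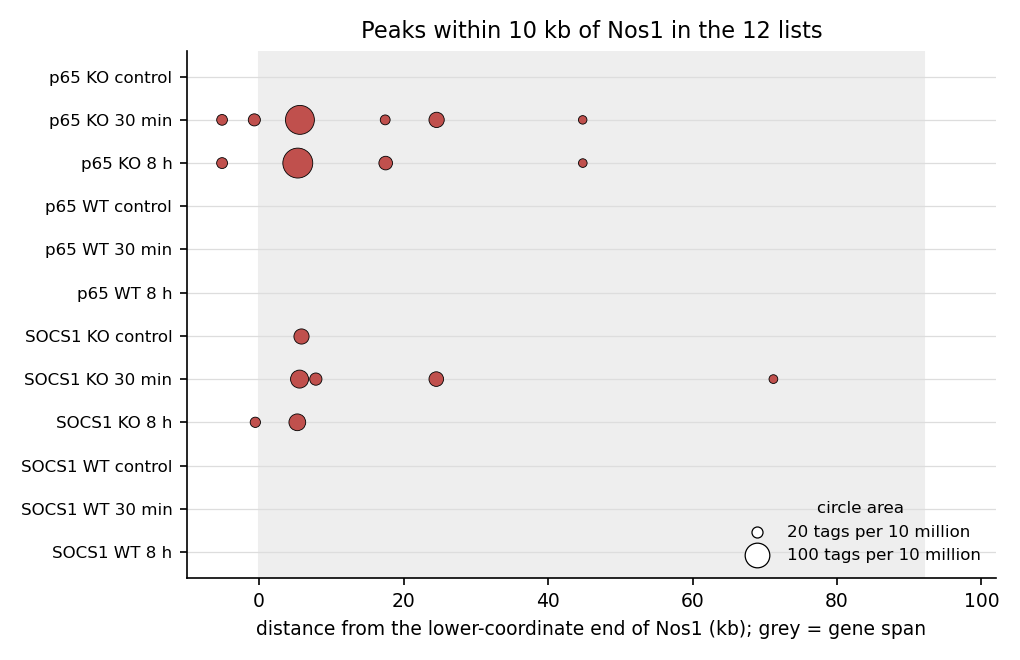
Peaks within 10 kb of Nos1 in the 12 lists (rows: antibody, genotype, treatment; red KO, no WT list has a peak), by distance from the lower-coordinate end of the gene in kb (x axis); grey is the gene span of 92.0 kb and circle area is tags per 10000000. The circles of the p65 KO lists at 30 min (137.8 tags) and 8 h (147.3 tags) near the lower end are the largest.

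The macrophage identity genes had sites in both genotypes at 20 of 20 members. The strongest belonged to Mitf (572.6 tags in KO, 433.1 in WT), Runx1 (450.3 against 289.8), Msr1 (a scavenger receptor, 278.8 against 165.5) and Ctsb (168.7 against 225.2), and the list's median log2 was 0.06. Cd68 was 2-fold lower in KO (52.9 against 110.7), from different sites. Peaks show binding near a gene and not its expression, so the labelled cell type could not be checked by transcript.

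Of 14 neutrophil genes 5 had sites in both (35.7%, beside 59.3% over all genes) and 5 in KO alone (35.7%, beside 6.09%): S100a8 (27.7 tags), Elane and Prtn3 (a site of 19.3 tags that they share), Mpo (9.76) and Ly6g (9.76). S100a9, Ngp, Retnlg and Cxcr2 had none. The neutrophil genes with sites in both were led by Mmp8 (120.4 against 80.7), Mmp9 (106.1 against 71.3) and Ltf (49.6 against 36.4). All 5 were higher in KO, beside 54.4% over all genes, and Camp was so at 2-fold (20.3 against 9.38). Of 14 lymphocyte genes 9 had sites in both, with Rag1 and Rag2 (a shared site of 53.2 against 57.4), Cd3d (64.3 against 43.2) and Klrb1c (46.9 in each, different sites) the highest, and Cd3e, Cd8a, Pax5 and Ncr1 had none. Of 10 dendritic cell genes 9 had sites in both, led by Xcr1 (367.5 against 238.0), Tcf4 (144.0 against 163.6), Ccr7 (71.6 against 90.1) and Flt3 (64.6 against 46.2); Batf3 and Itgax were 2-fold higher in KO from different sites. A share of other cells in either culture was not tested.

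The reference lists differed from each other in how many genes had sites at all. Among 20 neuronal and hepatic genes 6 had sites in both (30%, beside 59.3% over all genes) and 12 in neither (60%, beside 32.0%). Fgb had sites in KO alone (19.8 tags) and Rbfox3 in WT alone (8.26). Syn1 (50.2 against 46.5), Gfap (37.2 against 30.8) and Hnf4a (39.1 against 15.0) were among the 6, the latter pair at different sites. Their highest KO value, 176.0 tags near Slc17a7, came from a site 7789 bp from any WT peak with a clonal fold of 1.98, next to the caller's limit. The strongest WT site of Slc17a7, a different one, held 20.3 tags. The 15 housekeeping genes all had sites in both (median log2 0.09), with Eef1a1 at 81.6 against 82.9 and Actb at 112.3 against 86.7. Polr2b (188.8 against 43.9, different sites, KO clonal fold 1.91) and Pgk1 were 2-fold higher in KO.

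Of the sites called in 1 genotype, 33.2% in KO and 44.6% in WT had a peak centre of the other list within 1 kb, and the strongest of each list often had one. In Igf2r the KO site (464.6 tags) and the WT site (485.3 tags) lay 394 bp apart without overlapping. The same held near Dot1l (245.2 in KO, 201.9 in WT, 394 bp), Fbrs and Prr14 (263.6 and 281.5, 311 bp) and Ahnak and Eef1g (281 and 180.9, 280 bp). Among the 10 highest KO-alone sites, those near Tbc1d17 (338.2 tags) and Usp5 (247.9) also had a WT peak within 1 kb. Among the 10 highest WT-alone sites, those near Slc12a3 (311.5), Parp3 and Rrp9 (298), Mapkapk3 and Cish (290.5), Kdm6b (241.7) and Zswim4 (205.7) had a KO peak within 1 kb. Among sites of at least 100 tags, 273 were called in KO alone and 111 in WT alone, and 55.3% and 72.1% of them had a peak centre of the other list within 1 kb. That left 122 in KO and 31 in WT.

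Among these isolated sites the highest lay near Ppp1r15b, which encodes a phosphatase subunit. It held 300.5 tags in KO and lay 12834 bp from a WT peak. The others among the 10 highest were near Rhog (a small GTPase, 280.5 tags), in Kif21b (250.9) and near Cdk9 and Sh2d3c (244.4). Below these came sites near Sec11c (242.5), Sec14l1 (241.7), Tnrc6b (237.3), Ddx54 (224.9), Nod2 (223.2) and Hpcal1 (221.6). All 10 were also called in the WT p65 list at 8 h. Those of Ppp1r15b, Kif21b, Sec14l1 and Nod2 were in the untreated WT p65 list too. Their clonal folds went from 1.3 near Cdk9 to 1.97 near Sec14l1. The highest WT-alone sites beyond 1 kb were in Lrrfip1 (195.5 tags), in Cttnbp2nl (136.6), near Camta1 (136.2), near Chp1 and Exd1 (133.6), in Jazf1 (132.5), in Nek8 (132.1) and in Sh2b3 (129.9), a JAK2 signalling adaptor. Each of these was lower than the Hpcal1 site. At 8 h the sites of Camta1, Chp1, Jazf1, Nek8 and Sh2b3 were in the KO p65 list, and those of Lrrfip1 and Cttnbp2nl were not.

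These isolated strong sites had more tag pile-up than shared ones. A clonal fold of at least 1.5 was found at 62.3% of the 122 KO-alone sites and 67.7% of the 31 WT-alone sites, beside 32.4% and 47.9% of the shared sites of at least 100 tags. They were also nearer to genes' starts, within 1 kb of a start for 54.9% of the KO-alone and 54.8% of the WT-alone sites, beside 25.9% of such shared sites. At 8 h of LPS the WT list held 70.5% of the 122 KO-alone sites (61.6% to 78.4%) and the KO list 49.2% (40.0% to 58.4%). For the 31 WT-alone sites these were 77.4% in WT and 48.4% in KO. The WT list at 8 h is the longer (31007 sites against 25811). In untreated cells the order was the other way for the KO-alone sites. The KO list held 48.4% of them (39.2% to 57.6%) and the WT list 22.1% (15.1% to 30.5%). Of the WT-alone sites 29.0% were in the untreated KO list and 45.2% in the WT list. Shared sites of at least 100 tags in KO went in the same directions as the KO-alone sites. At 8 h 70.2% of them were in the KO list and 89.8% in the WT list, and in untreated cells 37.3% and 22.4%. SOCS1 lists at 30 min held 57.4% (KO) and 32.8% (WT) of the 122 sites, beside 73.2% and 77.5% of those shared sites. SOCS1 peaks at that time were 396 bp wide in KO and 227 bp in WT, and p65 peaks at 8 h 493 and 239 bp. A wider peak meets the 1 bp rule more easily, and the part of width in these shares was not tested.

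Over all sites, those called in 1 genotype at 30 min were found about as often in either genotype's list at 8 h. Of the KO-alone sites 24.6% were in the KO list at 8 h and 25.02% in the WT list. Of the WT-alone sites 25.98% were in the KO list at 8 h and 24.4% in the WT list. Of the shared sites 48.1% and 58.1% were. In untreated cells 7.47% of the KO-alone sites were in the KO list and 6.32% in the WT list. SOCS1 sites of the same time were found at 39.3% (KO) and 37.5% (WT) of the shared p65 sites. They were found at 14.5% and 10.4% of the KO-alone p65 sites and at 15.4% and 12.8% of the WT-alone ones. The p65 and SOCS1 lists were called against the same IgG library wherever genotype and treatment matched, and the part of this in these shares was not tested. The part of the differing peak widths of the lists was not tested either.

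The κB consensus was searched in 300-base promoters (250 bases before to 50 after the start) of the 79.9% of genes that had one in the table, on both strands. A peak counted here only where it overlapped these 300 bases, so the classes are not those of the sites. Nfkbia fell under WT alone, though a KO peak was centred at -395. B2m fell under KO alone, though a WT peak was centred at -404. The consensus was found in 6.19% of promoters overlapped by peaks of both lists (5.40% to 7.06%). It was in 4.50% of those overlapped by a KO peak alone, 5.30% by a WT peak alone and 4.51% by neither. All promoters gave 4.81%. Among promoters with both, the share was 4.56% in the quartile of lowest tags and 7.66% in the highest. The AP-1 letters TGANTCA were found in 4.99%, 4.59% and 4.72% of the same classes and in 7.98% of promoters with neither. The PU.1 letters GAGGAAGT were found in 3.38%, 4.28% and 2.70%, against 3.13% of all promoters. Median GC content was 60.3% with both, 60.3% with KO alone, 61.3% with WT alone and 53.7% with neither.

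Sites of each class were spread over the chromosomes. Shared sites were 39.5% to 43.2% of the sites on each autosome and KO-alone sites 34.3% to 37.4%. The X chromosome had 37.6% shared and 38.4% KO-alone of 1352 sites. After the bin that holds Nos1, Taok3 and Ksr2, the 1 Mb bins with the largest share of KO-alone sites held Lamp2 and Cul4b (60.9% of 23) and Kmt2c (60% of 20). Those with the largest share of WT-alone sites held Hspd1 and Sf3b1 (48.6% of 35) and Nbea (47.6% of 21). Shared sites lay within 1 kb of a start in 23.9% of cases, KO-alone sites in 19.4% and WT-alone sites in 18.5%.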

How the data were processed

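CUT&RUN libraries of p65 in KO and WT macrophages at 30 min of LPS were compared, and the other 10 lists of the series served for context. Per the submitters' processing notes, reads were trimmed with cutadapt, aligned to mm10 with Bowtie2 2.4.1 and called with HOMER 4.11. Per the file headers, each list was called from 1 library against IgG of the same genotype and treatment, at an FDR of 0.001, at least 4-fold over IgG and over the surrounding 10 kb, a clonal limit of 2 and 1 tag per bp. In the deposited files the signal is the tag count scaled by the authors to 10000000 tags, the score is the authors' unscaled findPeaks score, and each ratio is the authors' fold over IgG, local background or clonal expectation. The spike-in was not used here. Where peaks overlapped several, the pair of highest tags was kept. Python 3.11.15 with scipy 1.17.1 gave overlaps, intervals and medians, and the overlap and linking steps were tested on simulated data.

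Genes and sequences are RefSeq's for GRCm38.p6; the gene table has no strand, so links use the gene span, and starts come from the promoter table. Named were, per list, members with a site in 1 genotype and up to 4 shared members of highest mean tags; the 10 highest KO-alone and WT-alone sites near genes; the 10 largest ratios each way among the top quartile by score; the 10 highest shared sites; and Nos1 and Socs1. Members 2-fold apart and others singled out beyond that, the microRNA genes and the sites beyond 1 kb were chosen after their values were seen. The comparison and gene lists were chosen with earlier results of these data known. Alternatives were other overlap rules, stricter local fold, lists cut to equal length, a common floor, other scalings and other gene windows. Some values of single genes are not reported here.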

Additional observations from a re-analysis of the deposited data

Results flagged for a closer look

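The KO list was longer than the WT list at 30 min (1.197 times its length) and shorter at 8 h (0.832 times). Both lists were shorter at 8 h, and the ratio of their lengths lay on opposite sides of 1 at the 2 times. Each length comes from 1 library, and the difference was not tested. The KO library was the deeper at 30 min, by 1.38 times. At 8 h the peaks of the KO list were 493 bp wide and at least 986 bp apart, those of WT 239 and 478 bp. At 30 min these were 222 and 444 bp in KO and 254 and 508 bp in WT. The part of peak width and spacing in the list lengths was not tested.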

How the results depend on the processing

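Each result rests on 1 library per genotype, and intervals cover counting error only; leaving out a replicate was therefore not possible. No paired analysis was possible because each genotype has 1 library and no test was made. Of 39 alternatives, 12 stayed within the stated bounds and 27 moved. The share of WT sites called in KO (64.4%) became 59.8% where at least 50% of each peak had to overlap, 76.1% with centres within 500 bp, 65.8% at 8-fold over local background, 61.0% with lists of equal length and 63.7% with a common floor of tags. The share of KO sites called in WT (53.8%) became 49.998%, 64.1%, 52.5%, 61.0% and 55.7%. The median log2 KO over WT at shared sites was 0.012 with the stricter overlap, 0.032 at 8-fold over local background, 0.20 per 100 bp of peak width and -0.099 by depth-scaled score, so its sign depends on the scaling. Sites at least 2-fold higher and lower in KO numbered 131 and 105 at 8-fold over local background, 706 and 84 per 100 bp, and 32 and 70 by score. Genes with sites in KO alone and WT alone numbered 660 and 243 within 50 kb and 2360 and 1045 at 8-fold over local background. With lists of equal length WT-alone genes (954) outnumbered KO-alone genes (910), the reverse of the main order (559 and 1333). Counting only sites of at least 100 tags against the whole other list, an alternative chosen after seeing the data, left 34 and 4 genes.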
